A study of Mus musculus with 6 samples.

Results

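Endothelial cells of the mouse cortex were picked out of 3 single-cell libraries, 1 each from sham-operated brain, from the infarct core after photothrombotic stroke and from the peri-infarct area. A cell was a member when it had at least 500 genes and at most 10% mitochondrial UMIs (unique molecular identifiers, 1 per captured transcript), at least 3 of the 6 endothelial genes Cldn5, Cdh5, Pecam1, Flt1, Egfl7 and Ly6c1 detected, and no UMI of Ptprc (leukocytes) or of Kcnj8 or Abcc9 (pericytes). The members were thus chosen by their own expression of these genes, and the levels of those genes are description only. The rule found 718 cells among 7056 brain cells that passed the first 2 limits, and 37323 cells passed them in the whole series of 6 brain and heart libraries. By library the members numbered 298 in sham, 136 in the infarct and 284 in peri-infarct.

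All 3 groups were Tbx18CreER/+;Rosa26tdT/+ mice, in which tamoxifen makes cells that express Tbx18 carry the red fluorescent protein tdTomato. Tamoxifen was given into the peritoneum for 4 days and a week without it followed, and cortex was then dissociated enzymatically and sorted for tdTomato. Tbx18 is a gene of pericytes, smooth muscle and some fibroblasts, so the sort was aimed at these cells and the endothelial cells here are those that came through it. Each group was 1 library of 10x Genomics 3′ chemistry. The labels give neither the number of animals behind a library nor the time from stroke to harvest.

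Brain endothelial cells form the blood-brain barrier. Tight junctions seal the cells to each other, glucose, amino acid and organic anion carriers move nutrients across them, efflux pumps return drugs to the blood, and little passes by vesicles. Wnt signals from the surrounding tissue keep this programme on. Along the vessel tree the cells differ, with arterial, capillary and venous genes, and it is mainly in venules that leukocytes adhere through ICAM1, VCAM1 and selectins when cytokines activate the endothelium.

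The members made up 11.3% of filtered cells in sham (exact 95% binomial interval 10.1 to 12.5), 6.57% in infarct (5.54 to 7.72) and 12.1% in peri-infarct (10.8 to 13.5). All intervals given here cover counting error only, since each group is 1 library, and no test across animals could be made. Because the rule reads detection, it depends on depth, and the infarct library was far deeper, with a median of 26159 UMIs per filtered cell against 3374 in sham and 2944 in peri-infarct. The members were therefore split by the share of their UMIs that came from the 6 rule genes. At 0.5% or more, 285 sham, 76 infarct and 271 peri-infarct members were marker-rich, 632 in all. The other members were marker-poor and numbered 13, 60 and 13, which is 4.36%, 44.1% and 4.58% of the members of each library.

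**Figure D1:**
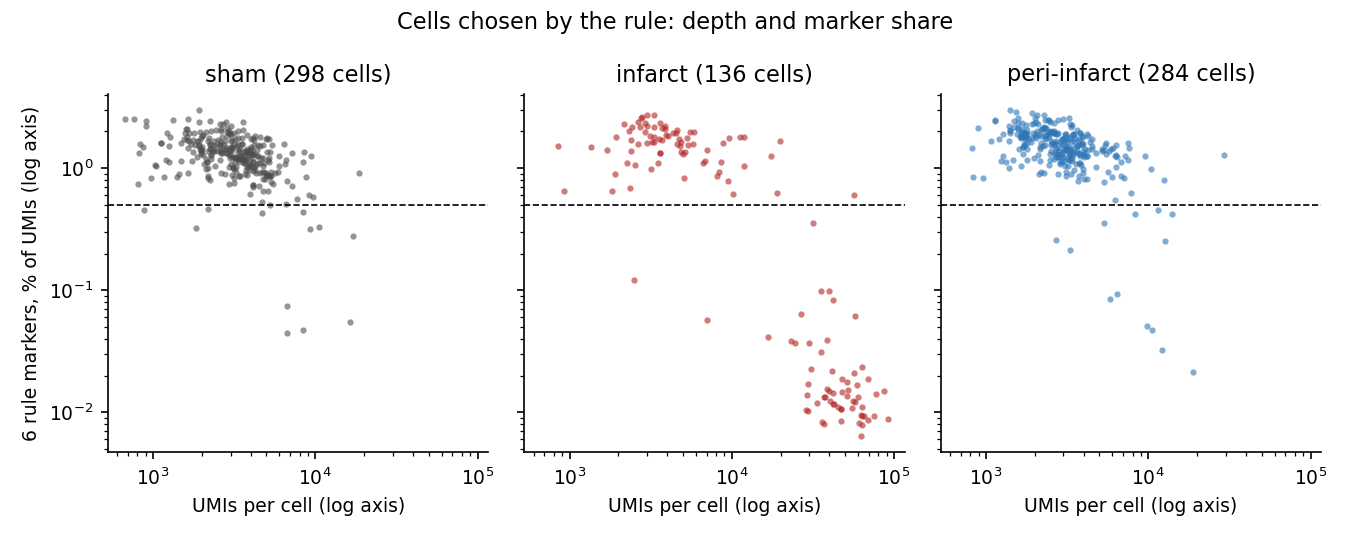
Each point is 1 member, with its total UMIs on a log axis against the percent of its UMIs from the 6 rule genes, 1 panel per library, and the dashed line at 0.5% divides marker-rich from marker-poor members. In the infarct panel 60 of 136 members lie under the line, with a median of 43695 UMIs, while 13 members lie under it in each of the other panels.

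The label held for marker-rich members and did not hold for the infarct's marker-poor members. The 24 endothelial genes that the rule did not use (Tie1, Erg, Emcn, Esam and others) summed to 16125 CPM (counts scaled to a library sum of 1000000 UMIs) in sham, 15751 in the infarct and 16757 in peri-infarct marker-rich members. All 24 were at least 2-fold above the other cells of the same library in each of the 3. In marker-poor members the same sum was 4624, 402 and 2839 CPM, and in the infarct it lay below the 965 CPM of cells that carried a pericyte gene. The infarct's marker-poor cells instead held 16882 CPM of the 10 fibroblast genes (collagens, Dcn, Lum and others), against 886 CPM in its marker-rich cells. They had a median of 43695 UMIs per cell, against 3704 in the marker-rich, and supplied 86.5% of all UMIs of the infarct members.

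Members just inside the rule, with exactly 3 of the 6 genes detected, numbered 10 in sham, 52 in the infarct and 10 in peri-infarct, and their other endothelial genes summed to 4545, 247 and 1977 CPM. Cells just outside, with exactly 2, numbered 57, 429 and 71, at 716, 317 and 788 CPM. In the infarct the 3-gene cells were thus no richer in endothelial transcripts than the 2-gene cells outside. The 0.5% limit itself fell in a sparse range, since from 0.4% to 0.5% there were 5, 0 and 3 members, and from 0.5% to 0.6% there were 4, 1 and 1. The results below are therefore given for marker-rich members, with all members beside them.

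Marker-rich members summed to 968791 UMIs in sham, 433439 in the infarct and 865891 in peri-infarct, and their median UMIs per cell were close, at 3167, 3704 and 2828. A further 120, 27 and 168 cells met all limits of this set but held a UMI of Ptprc, Kcnj8 or Abcc9 and were left out. The pericyte gene Rgs5 had a UMI in 227 of 285, 61 of 76 and 208 of 271 marker-rich cells. Pericyte genes summed to 2596, 1264 and 2503 CPM in the marker-rich members, fibroblast genes to 93.9, 886 and 161 CPM, smooth muscle genes to 323, 50.8 and 634 CPM, myeloid genes to 43.4, 152 and 49.7 CPM and astrocyte genes to 737, 512 and 490 CPM. Neuron genes were at 38.2, 18.5 and 33.5 CPM and oligodendrocyte genes at 18.6, 62.3 and 38.1 CPM, and the part of any of these in the differences below was not tested. Erythrocyte genes summed to 4924, 13566 and 61.2 CPM, of which 1 infarct cell held 3810 of 3812 Hbb-bs UMIs. The female transcript Xist was found in 1 of 285 marker-rich sham cells, 24 of 76 infarct cells and 106 of 271 peri-infarct cells, and a Y-linked transcript in 150, 20 and 39, so that the libraries differ in the sex of their animals and sex cannot be told apart from injury in any difference below. The brain libraries shared 7 to 13 barcodes pairwise among filtered cells, and at most 1 among members.

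Genes were compared when their mean over both libraries was at least 50 CPM, and a gene was called when its ratio of (CPM + 1) was at least 2-fold. A gene under 50 CPM in 1 library thus enters only through its level in the other. Counts and medians of lists with such genes lean towards large ratios and are description only. The scaling by another method (trimmed mean of M-values, TMM) moved every log2 ratio of the marker-rich cells up by 0.23 for infarct against sham, by 0.10 for peri-infarct against sham and by 0.13 for infarct against peri-infarct. Series of 3 values below are for sham, infarct and peri-infarct in this order. Ratios are of CPM, and the median log2 ratio of all compared genes, which lists are set beside, was -0.20, -0.07 and -0.12 in these comparisons.

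The first comparison asks how endothelial cells in the stroke core differed from those of sham cortex. In marker-rich members, 8 of 12 compared venous genes and 3 of 6 leukocyte-adhesion genes were higher in the infarct. The 3 adhesion genes (Ackr1, Icam1 and Vcam1) are on the venous list too. These lists hold called genes that were compared only through their infarct level, so the venous and adhesion counts are description only. Lower were 4 of 11 arterial genes and the heat shock genes Hspa1a, Hspa1b and Hspb1. Most solute carriers lay moderately below sham without reaching 2-fold. Of 3414 genes, 109 were called higher (3.19%) and 216 called lower (6.33%), while with TMM scaling 194 were higher and 88 lower. In all members 615 of 3366 genes were higher (18.3%) and 1023 lower (30.4%), or 1111 and 670 of 3448 with TMM.

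Among the lists of vessel zones the venous one had the highest median. Of its 13 genes 12 were compared, 8 were called higher and 0 lower, with a median log2 ratio of 1.35 beside -0.20 for all genes. Of the called genes Ackr1, Lcn2, Icam1, Il1r1 and Ephb4 were below the CPM limit for comparison in sham and entered only through their infarct level. The count and the median thus lean towards large ratios and are description only. Without a call were, among others, Nr2f2 (0.82), Slc38a5 (0.99) and Car4, which lay below sham (-0.997). Over all other settings tried, 3 to 10 of the list were higher and its median ranged from 0.84 to 1.58. More venous cells in the infarct sample and a higher level per venous cell cannot be told apart in these sums.

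Ackr1, the venular receptor that takes up chemokines, lies at chr1:173331886-173333750 (mm10) and had 0 UMIs in 285 sham cells, 57 in 9 of 76 infarct cells and 11 in 3 of 271 peri-infarct cells. These are 0, 132 and 12.7 CPM, and the infarct was at least 42.5-fold higher than sham with sham set at 3 counts. Lrg1, a secreted glycoprotein that acts on TGF-beta signalling in vessels, was at 2.06 CPM in sham, 226 in the infarct and 47.4 in peri-infarct. Its infarct ratio of 110 rests on 2 sham UMIs and has a counting interval of 29.5 to 917.

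Lcn2, an acute-phase siderophore-binding protein, was at 2.06 CPM in sham, 122 in the infarct and 50.8 in peri-infarct, a 59.2-fold infarct ratio (15.6 to 502, from 2 sham UMIs). The chemokine gene Cxcl1 was at 4.13, 108 and 3.46 CPM, 26.3-fold higher (9.60 to 100), with 31 of its 47 infarct UMIs in 1 cell. For these 4 genes sham was at or near 0, and they were called under every other setting tried.

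Icam1, the adhesion molecule to which leukocyte integrins bind, was at 33.0 CPM in sham, 136 in the infarct and 30.0 in peri-infarct, and the infarct was 4.12-fold higher than sham (2.64 to 6.55). Vcam1, its counterpart for another integrin, was at 68.1, 180 and 35.8 CPM, a ratio of 2.64 (1.88 to 3.72) that fell under 2-fold when cells were limited to 5% mitochondrial UMIs and when cells were thinned to 1000 UMIs. For both genes peri-infarct lay at or below sham. The selectin Sele had 0, 16 and 0 UMIs, all 16 in 3 infarct cells, and Selp had 0, 2 and 0.

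Vwf, the clotting factor stored in venous and large-vessel endothelium, was at 126, 484 and 203 CPM, 3.85-fold higher in infarct than in sham (3.06 to 4.85) and 1.61-fold higher in peri-infarct. It was spread over more cells than Ackr1 or Icam1, with a UMI in 73 of 285 sham cells, 43 of 76 infarct cells and 91 of 271 peri-infarct cells. After thinning each cell to 1000 UMIs, 11.2%, 31.1% and 14.6% of cells had one, and cells with a pericyte gene, which should lack it, had one in 0.215%, 0.434% and 0.409%. The median depth of those pericyte cells was 2804.5, 3309 and 2059 UMIs. Their pericyte genes summed to 36150, 15014 and 42018 CPM and their fibroblast genes to 715, 15227 and 963 CPM. In the infarct the name pericyte cells thus stands for the rule only, since these cells were rich in fibroblast transcripts as well. Il1r1, the interleukin-1 receptor, was at 39.2, 120 and 24.3 CPM, and Ephb4, the venous ephrin receptor, at 37.2, 83.1 and 70.4 CPM, a call lost in 4 of the other settings. The glutamine carrier Slc38a5 of the same list was at 99.1, 198 and 102 CPM, just short of the threshold on the (CPM + 1) scale (log2 0.99).

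**Figure D2:**
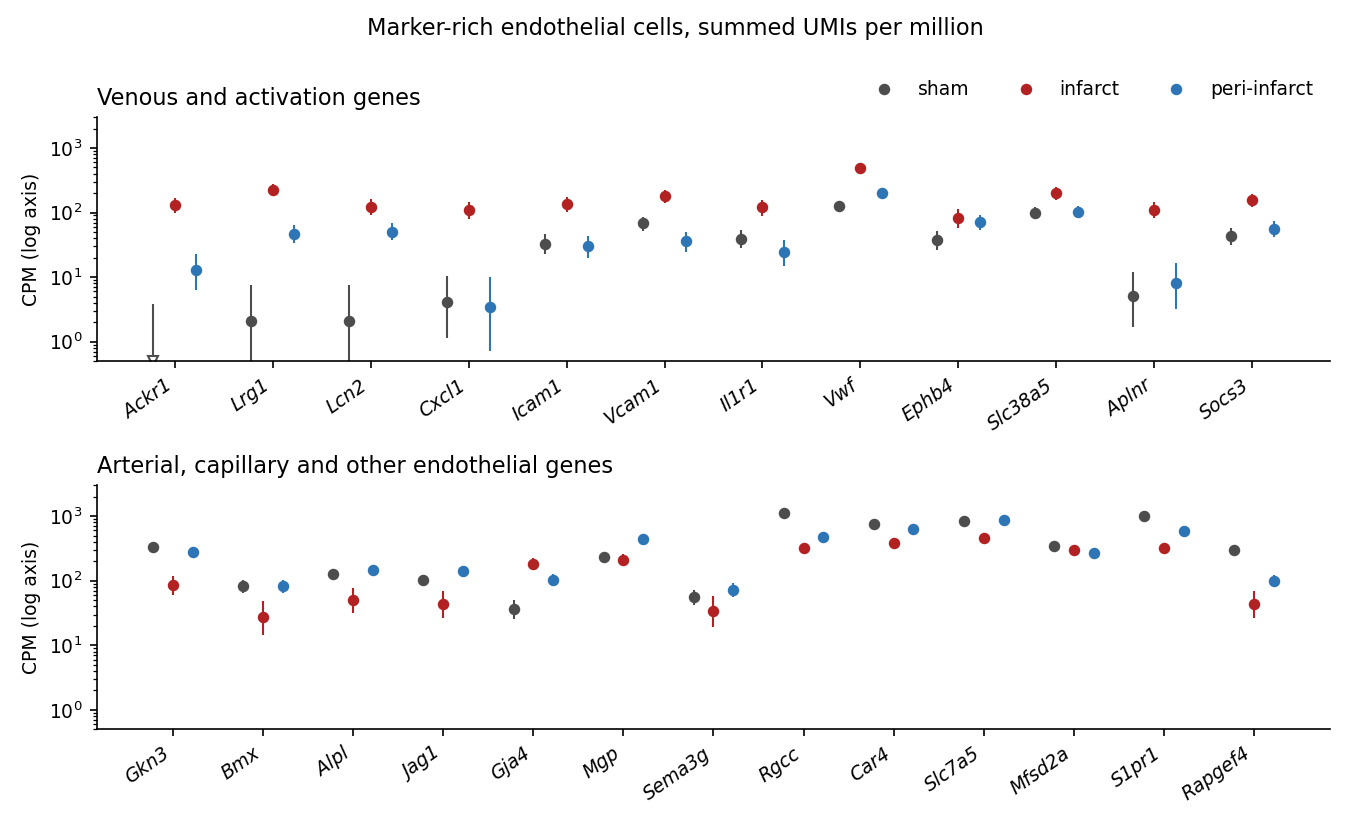
CPM of venous and activation genes (first panel) and of arterial, capillary and other endothelial genes (second panel) in marker-rich members of the 3 libraries on a log axis, with exact 95% Poisson intervals for counting error and an open triangle where a library had 0 UMIs. Ackr1, Lcn2, Icam1 and Vwf sit highest in the infarct, and Gkn3, Bmx and Rgcc sit lowest there.

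Some cytokine and NF-kB response genes were called. Of 28 listed, 12 could be compared and 5 were higher (Cxcl1, Lcn2, Socs3, Il1r1 and Lrg1) and 0 lower, with a median of 0.49. Lcn2 and Il1r1 are on the venous list as well. All 5 called genes were below the CPM limit for comparison in sham, so the count and the median of this list are also description only. Socs3, the feedback inhibitor that STAT3 induces, was at 43.4 CPM in sham, 155 in the infarct and 56.6 in peri-infarct, 3.57-fold higher in the infarct (2.39 to 5.38). At 1000 UMIs a cell, 6.76% of infarct marker-rich cells and 17.6% of the infarct's pericyte cells had a Socs3 UMI. Its share was thus not above that of pericyte cells there. In sham pericyte cells the Socs3 share was 3.59%, so these cells differ between libraries as well and give no fixed background. Those of the infarct were also rich in fibroblast transcripts, as given above. For Il1r1 the infarct shares were 9.46% and 10.8% and for Cxcl1 6.76% and 6.29%, also not above pericyte cells beyond counting error. For Lrg1 they were 6.76% (2.23 to 15.1) and 0% (up to 0.797), with intervals apart. Intervals overlapped for Lcn2, at 4.05% (0.844 to 11.4) and 0.868% (0.237 to 2.21). They also overlapped for Icam1, at 5.41% (1.49 to 13.3) and 1.52% (0.613 to 3.10). Of 14 leukocyte-adhesion genes 6 were compared and 3 (Ackr1, Icam1 and Vcam1) were higher, and 0 to 3 were under the other settings.

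The promoters of Icam1 and Socs3 are shown because the genes are textbook targets of the cytokine-activated factors NF-kB and STAT3 and both were called higher in the infarct sum, with the limit on Socs3 just given. They are RefSeq sequences of GRCm38.p6, 250 bases before to 50 after the gene start, 5′ to 3′ on the gene's strand, at chr9:21015690-21015989 (+ strand, Icam1) and chr11:117969317-117969616 (- strand, Socs3). Capitals mark matches on either strand to GGNNTTTCC (NF-kB) and TTCNNNGAA (STAT).
Icam1: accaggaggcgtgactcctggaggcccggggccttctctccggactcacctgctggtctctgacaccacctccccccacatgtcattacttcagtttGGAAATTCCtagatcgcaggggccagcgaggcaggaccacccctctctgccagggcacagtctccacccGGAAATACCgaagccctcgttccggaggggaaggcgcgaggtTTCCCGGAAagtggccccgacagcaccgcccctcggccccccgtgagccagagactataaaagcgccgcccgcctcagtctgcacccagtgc
Socs3: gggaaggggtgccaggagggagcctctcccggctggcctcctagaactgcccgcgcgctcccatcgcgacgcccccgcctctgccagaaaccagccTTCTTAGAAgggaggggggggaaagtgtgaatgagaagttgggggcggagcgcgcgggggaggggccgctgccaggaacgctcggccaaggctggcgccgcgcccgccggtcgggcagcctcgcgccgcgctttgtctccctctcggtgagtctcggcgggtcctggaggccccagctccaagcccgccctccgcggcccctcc
Icam1 held the NF-kB letters at bases 98 to 106 and 167 to 175, both on the other strand, and the STAT letters at 209 to 217. Socs3 held the STAT letters at bases 97 to 105. Among 32851 promoters of this length 5.82% held the NF-kB letters and 8.30% the STAT letters, no matches overlapped here, and in the same window of Lcn2 and Lrg1 neither motif was found. A match describes letters only.

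The activation genes were found together in few cells. Of the 8 genes Ackr1, Lrg1, Lcn2, Icam1, Vcam1, Il1r1, Aplnr and Cxcl1, a set put together after their values were seen, at least 3 were detected in 5 of 285 sham cells (1.75%), 11 of 76 infarct cells (14.5%) and 5 of 271 peri-infarct cells (1.85%). In 4 infarct cells all 8 were detected. At 1000 UMIs a cell, at least 3 were detected in 0 of 276 sham cells, with an exact interval up to 1.33%. At least 3 were detected in 7 of 74 infarct cells (9.46%, interval 3.89 to 18.5) and in 2 of 267 peri-infarct cells (0.749%). Thinning left out 9, 2 and 4 cells with fewer UMIs.

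**Figure D3:**
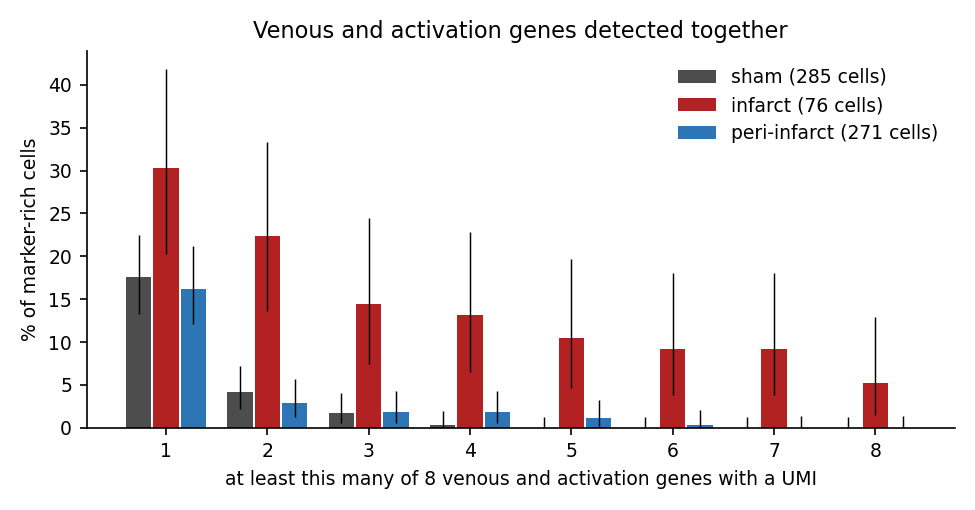
Bars show the percent of marker-rich members of each library with at least the given number of the 8 activation genes detected, with exact 95% binomial intervals. At 3 genes the infarct bar stands at 14.5% and the sham and peri-infarct bars at 1.75% and 1.85%.

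The 9 infarct cells with an Ackr1 UMI held most of the infarct's activation transcripts. They carried 55 of 59 Icam1 UMIs, 66 of 78 of Vcam1, 50 of 53 of Lcn2, 44 of 47 of Cxcl1, 73 of 98 of Lrg1 and all 16 of Sele, though they had 128448 of the 433439 UMIs. Their median was 8355 UMIs per cell against 3629 in the other 67 marker-rich infarct cells. The split by a detected gene thus also follows depth, whose part in the differences below was not tested. Most transport genes were low in these cells. The solute carrier list summed to 5029 CPM against 12318 in the other 67 infarct cells, and capillary genes to 6695 against 16046. Slco1a4, which moves organic anions and thyroid hormone, was at 249 against 1518 CPM, and Mfsd2a, the lipid carrier that limits vesicle traffic, at 70.1 against 393 CPM. Slc38a5, a carrier of the venous list, was the other way, at 366 against 128 CPM and in 9 of the 9 cells. Junction genes differed less, at 2297 against 2997 CPM. The deepest of the 9 cells held fibroblast transcripts as well, and without it the list sums were 6713 CPM for carriers, 7561 for capillary genes and 2808 for junctions, with fibroblast genes at 111 CPM in place of 2849, and Slco1a4 was at 375 CPM. Rule genes summed to 9763 CPM in the 9 cells, 12718 without the deepest and 15610 in the other 67. Pericyte genes summed to 187, 278 and 1718 CPM in the same order.

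Endothelial regulators of growth and flow also differed. Aplnr, the apelin receptor found on veins and sprouting vessels, was at 5.16, 111 and 8.08 CPM (21.5-fold, 8.58 to 69.1), and Adm, the vasodilator adrenomedullin that hypoxia induces, at 49.5, 231 and 97.0 CPM (4.66-fold, 3.27 to 6.71). S1pr1, the sphingosine receptor that keeps junctions closed, was lower in infarct cells, at 1020, 318 and 589 CPM (log2 -1.68). Rapgef4, a cAMP-activated exchange factor, was at 297, 43.8 and 99.3 CPM (log2 -2.73). Of 28 angiogenic and tip cell genes 15 were compared and 3 were higher (Aplnr, Adm and, with its call lost in 6 of the other settings, Nrp2) and 0 lower, and the tip cell gene Esm1 had 0 UMIs in all 3 libraries. The proliferation gene Mki67 had 0, 1 and 0 UMIs.

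Some arterial genes were lower in the infarct sample. Of 17 listed 11 were compared, 4 were lower, 1 was higher and 6 were not called, and the median was -0.45 beside -0.20 for all genes. Over the other settings 1 to 4 were lower. Gkn3, an arterial marker of brain, was at 339 CPM in sham, 85.4 in the infarct and 282 in peri-infarct (infarct 3.97-fold lower), with a UMI in 18.2%, 17.1% and 18.1% of cells, or in 13.4%, 5.41% and 10.9% at 1000 UMIs a cell. Bmx, an arterial kinase, was at 82.6, 27.7 and 82.0 CPM, Alpl, alkaline phosphatase, at 126, 50.8 and 149 CPM, and Jag1, a Notch ligand, at 102, 43.8 and 142 CPM. Peri-infarct lay near sham for Bmx and above it for Alpl and Jag1. Jag1 lost its call in 7 of the other settings. The higher gene was Gja4, a gap junction connexin, at 36.1, 182 and 102 CPM, and 54 of its 79 infarct UMIs were in 1 cell. At 1000 UMIs it was detected in 2.70% of infarct marker-rich cells and 47.3% of pericyte cells. Gja4 was common in sham pericyte cells too (31.8%), so these cells give no background for it. The part of their RNA in the sum was not tested. Its call was lost in 3 of the other settings, leaving out the cell with the 54 UMIs among them.

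Of 14 capillary genes, all compared, 1 was higher and 1 lower, where 3.19% of all genes were higher and 6.33% lower. Rgcc, a cell cycle regulator enriched in capillaries, was at 1116, 316 and 482 CPM, 3.53-fold lower in infarct and 2.32-fold lower in peri-infarct, and both held under every other setting. At 1000 UMIs a cell it was detected in 54.7%, 23% and 35.6% of cells. Pericyte cells also showed it, in 26.7%, 18.4% and 30.0%, so the shares in infarct and peri-infarct approach those of pericyte cells. The higher gene was Tfrc, the transferrin receptor, at 156, 318 and 224 CPM (2.04-fold, 1.61 to 2.59), a call lost in 6 of the other settings.

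The barrier genes themselves mostly stayed within 2-fold of sham. Of 23 solute carriers and receptors 21 were compared and 1 (Tfrc) was called, yet 16 of the 21 lay below the all-gene median. The list median was -0.50, or -0.27 with TMM, and ranged from -0.58 to -0.25 over the settings. The list summed to 10158 CPM in infarct against 14708 in sham. Within the infarct it summed to 5029 CPM in the 9 cells with Ackr1 and 12318 in the other 67. Slc2a1, the glucose carrier GLUT1 of the barrier (chr4:119108711-119137983), was at 2713 CPM in sham, 1543 in the infarct and 2122 in peri-infarct. Its infarct level was 0.569-fold that of sham (0.522 to 0.620). The organic anion carriers Slco1a4 and Slco1c1 were at 2066, 1142 and 1742 CPM and at 1638, 937 and 1373 CPM, and the amino acid carrier Slc7a5 at 842, 459 and 871 CPM. For all 4 the infarct was lowest, and peri-infarct was between, except for Slc7a5, whose ratio of peri-infarct to sham had an interval that includes 1 (0.935 to 1.14).

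Detection in single cells differed between the carriers. At 1000 UMIs Slc2a1 was detected in 90.2% of the sham, 79.7% of the infarct and 80.9% of the peri-infarct cells, and in 1.94%, 2.17% and 3.17% of pericyte cells. Slco1a4 was detected in 84.4%, 70.3% and 80.5%, and Slc7a5 in 59.1%, 36.5% and 52.8%. Unthinned, Slc2a1 was detected in 97.2%, 94.7% and 97.0%, and Slc7a5 in 81.8%, 76.3% and 79.7%.

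**Figure D4:**
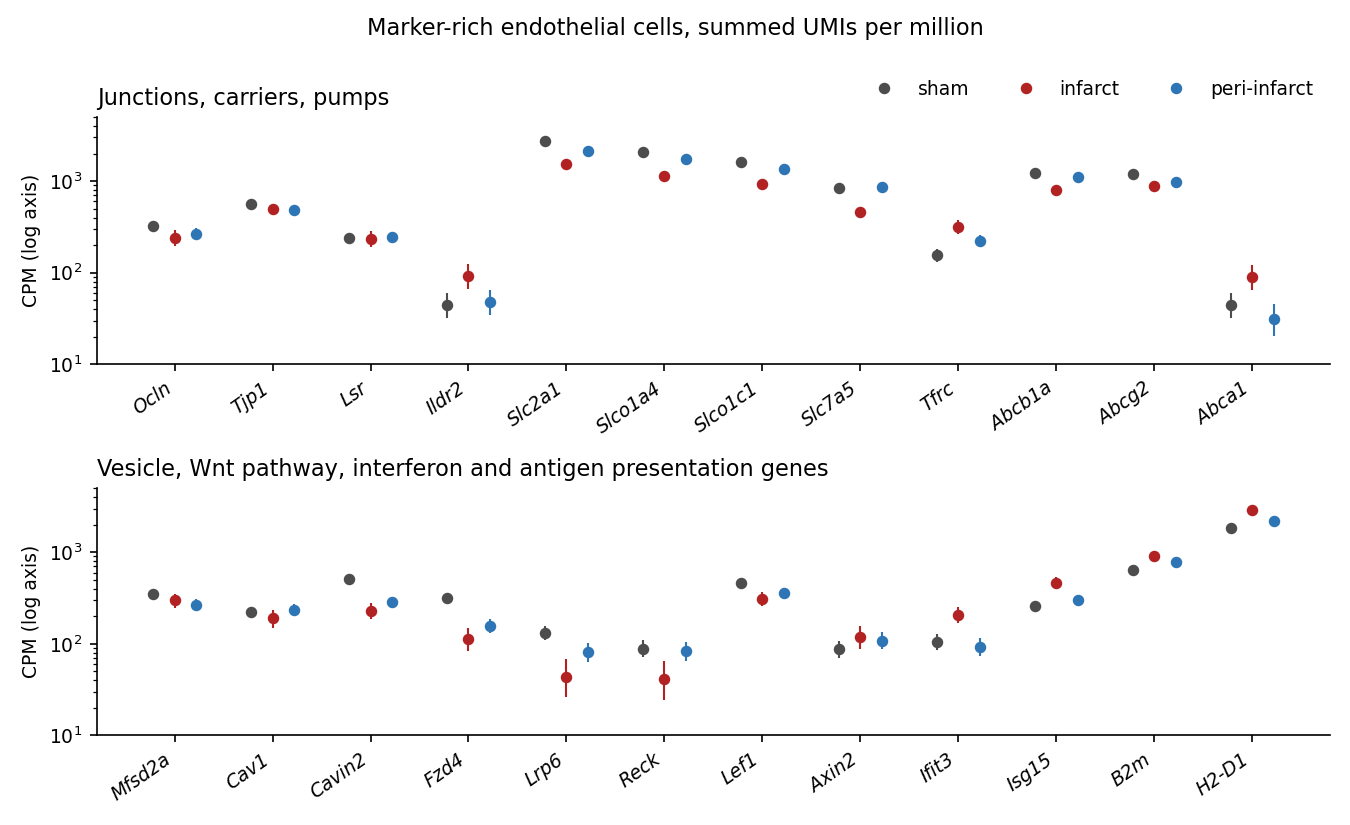
CPM of junction, carrier and efflux pump genes (first panel) and of vesicle, Wnt, interferon and antigen presentation genes (second panel) in marker-rich members of the 3 libraries on a log axis with exact 95% Poisson intervals. Slc2a1, Slco1a4 and Abcb1a are lowest in the infarct, while Tjp1 and Lsr differ little between libraries.

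Junction genes differed little. Of 19 listed 13 were compared, 1 was higher (Ildr2, at 44.4, 92.3 and 48.5 CPM, a call lost in 5 of the other settings) and 0 lower, with a median of -0.17, near that of all genes, which turned to 0.06 with TMM. Ocln, the tight junction protein occludin, was at 326, 240 and 268 CPM (infarct 0.736-fold, 0.584 to 0.921). Tjp1, the scaffold ZO-1, was at 557, 494 and 487 CPM, with an interval of the infarct ratio that includes 1 (0.753 to 1.04). Lsr, the tricellular junction receptor, was at 237, 233 and 245 CPM (0.769 to 1.25). Claudin-5, which was part of the rule and so is only described, was at 2962, 6508 and 4737 CPM.

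Most efflux pump and vesicle genes were not called. Abcb1a, P-glycoprotein, was at 1233, 796 and 1112 CPM (infarct 0.645-fold, 0.571 to 0.728), and Abcg2, another multidrug pump, at 1186, 879 and 975 CPM. Of 4 compared pumps only the cholesterol exporter Abca1 was called, at 44.4, 90.0 and 31.2 CPM, and it lost the call in 6 of the other settings. Mfsd2a was at 351, 298 and 268 CPM and the caveolar coat gene Cav1 at 221, 189 and 237 CPM, with intervals of the infarct ratio that include 1 for both (0.687 to 1.04 and 0.656 to 1.11). Of 10 compared genes of caveolae, vesicles and fenestrae 1 was lower (Cavin2, a caveolar adaptor, at 511, 231 and 289 CPM), a call lost in 4 of the other settings, TMM among them. The fenestral gene Plvap had 0, 28 and 0 UMIs, with 27 of the 28 in 1 infarct cell.

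In the Wnt list 3 of 18 compared genes were lower and 0 higher, where 6.33% of all genes were lower. The list median was -0.18, near that of all genes, and turned to 0.05 with TMM. Fzd4, the receptor through which norrin acts on brain vessels, was at 319, 113 and 156 CPM (2.82-fold lower in infarct). Lrp6, its co-receptor, was at 132, 43.8 and 80.8 CPM, and Reck, part of the WNT7 receptor complex, at 88.8, 41.5 and 83.2 CPM, a call lost in 6 of the other settings. The pathway targets Lef1, at 458, 307 and 355 CPM, and Axin2, at 87.7, 118 and 109 CPM, were not called. Klf4, a flow-responsive factor, was at 946, 466 and 290 CPM, its infarct call lost in 3 of the other settings, and its relative Klf2 at 4447, 3124 and 2921 CPM.

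Interferon and antigen presentation genes lay slightly above sham without a call. Of 22 compared interferon genes 0 were called and the list summed to 6467 CPM in infarct against 4477 in sham, while TMM scaling called 3 of them higher. Ifit3, an antiviral effector, was at 104, 208 and 92.4 CPM, a log2 ratio of 0.99. Of 12 antigen presentation genes 0 were called, with the class I heavy chain H2-D1 at 1821, 2856 and 2187 CPM and its light chain B2m at 646, 904 and 773 CPM. Class II Cd74 had 1, 0 and 9 UMIs.

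Stress genes differed in both directions. Of 19 immediate early and heat shock genes 3 were higher and 3 lower. The inducible heat shock protein genes Hspa1a and Hspa1b were at 960, 78.4 and 440 CPM and at 646, 34.6 and 236 CPM, 12.2-fold and 18.7-fold lower in infarct than in sham. The small heat shock gene Hspb1 was at 2533, 921 and 1847 CPM. The growth-factor and stress responders Egr1, Atf3 and Ier3 were higher, at 194, 459 and 97.0, at 269, 602 and 118, and at 406, 1345 and 792 CPM, and Atf3 lost its call in 5 of the other settings. Such genes also respond to enzymatic dissociation, whose part here was not tested.

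Genes of the cytoskeleton and matrix were also examined. Vim, the intermediate filament vimentin, was at 1386, 3888 and 1685 CPM (2.80-fold, 2.61 to 3.02), and was detected at 1000 UMIs in 87.8% of infarct cells against 38.6% of pericyte cells. S100a6, a calcium-binding protein, was at 32.0, 198 and 143 CPM, but its thinned share of 8.11% in infarct lay under the 18.2% of pericyte cells. In sham pericyte cells its share was 1.51%, so they give no fixed background for it either. Fn1 and Col4a1, of the matrix and the basement membrane, were at 528, 969 and 649 and at 339, 533 and 269 CPM and were not called.

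The remaining lists held few called genes, where 3.19% of all genes were higher and 6.33% lower. Of 13 compared endothelial transcription factors 2 were lower in infarct (Klf4 and Mecom, at 285, 141 and 174 CPM) and 0 higher, with a median of -0.61. Of 10 basement membrane genes 1 was higher (Nid1), of 9 coagulation and vascular tone genes 1 was higher (Vwf) and 1 lower (Plat, tissue plasminogen activator, at 158, 76.1 and 85.5 CPM, a call lost in 5 of the other settings), and of 13 glycolysis and hypoxia genes 1 was higher (Adm). In the mesenchymal transition list 3 of 16 were higher (Vim, S100a6 and Lgals1) and 1 lower (Acta2). Lgals1, a galectin, was detected at 1000 UMIs in 2.70% of infarct marker-rich cells and 46.2% of pericyte cells. Of the 3 only Vim thus had a share above that of pericyte cells, and Lgals1 lost its call in 3 of the other settings. Cell cycle genes had 0 called of 4 and oxidative phosphorylation genes 0 of 18.

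Several of the highest ratios rested on 1 cell. A single infarct cell with 56501 UMIs held 143 of 146 Col1a1, 93 of 101 Col3a1 and 91 of 105 Spp1 UMIs, together with 358 UMIs of fibroblast genes and 445 of the other endothelial genes. Spp1, osteopontin, was at 9798 CPM in the infarct's cells outside the members, and its 242 CPM in the marker-rich cells compare with 0 in sham and peri-infarct. Without that library's deepest cell Col1a1 lay below sham (log2 -0.61). Among the lowest genes Ptgds, a prostaglandin synthase abundant in meningeal cells, had 268, 0 and 336 UMIs, with 168 of the sham and 230 of the peri-infarct UMIs in 1 cell each. It was at 13851 CPM in sham and 356 CPM in infarct in the cells outside the members, and the part of such RNA was not tested.

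**Figure D5:**
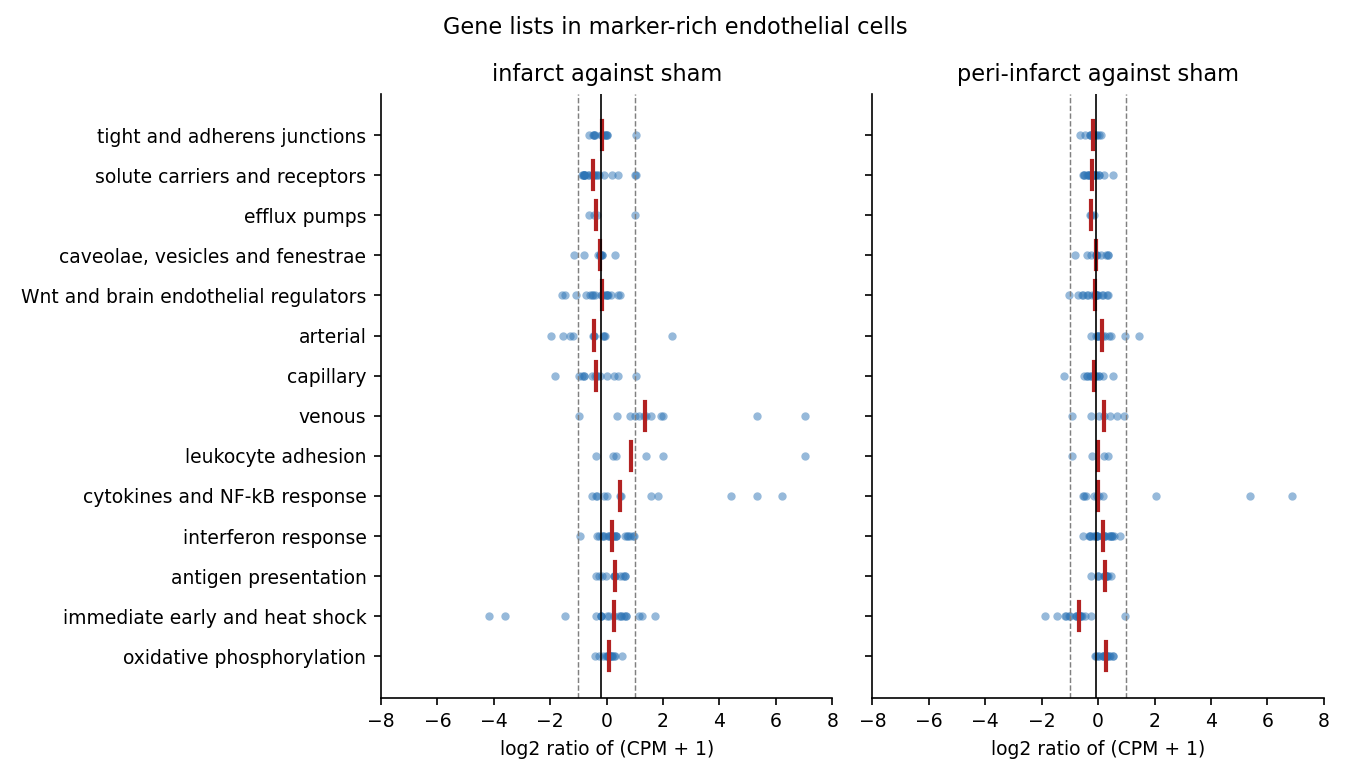
Log2 ratios in marker-rich members of infarct over sham (left) and of peri-infarct over sham (right) for the compared genes of each list, 1 point per gene, with the list median as a red bar, the all-gene median (-0.20 and -0.07) as a black line and dashed lines at 2-fold. On the left the venous median is 1.35 and most solute carriers lie below the all-gene median without passing -1, and on the right the immediate early and heat shock median is -0.69.

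All members gave another picture, as their infarct sum is mostly marker-poor cells. Of the barrier lists, 11 of 12 compared junction genes, 19 of 20 solute carriers, 3 of 3 efflux pumps and 12 of 13 Wnt genes were at least 2-fold lower in infarct than in sham, where 30.4% of all genes were. Of the other endothelial genes 22 of 23 were lower as well, and 5 of 5 compared fibroblast genes and 10 of 11 cell cycle genes were higher. Slc2a1 was at 2534 CPM in sham members and 225 in infarct members, against 2713 and 1543 in the marker-rich. The marker-poor cells that supply 86.5% of the infarct sum held 402 CPM of other endothelial genes and 16882 CPM of fibroblast genes, as given above, while the marker-rich infarct cells kept 15751 CPM of the other endothelial genes beside 16125 in sham.

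Peri-infarct endothelial cells were much closer to sham. In marker-rich members 23 of 3561 genes were called higher (0.646%) and 42 lower (1.18%), or 38 and 25 with TMM. In all members, where few are marker-poor, 28 of 3513 were higher (0.797%) and 41 lower (1.17%). Among compared genes the clearest differences were lower immediate early and heat shock genes and a lower Rgcc, Klf4 and Rapgef4. The barrier lists held 1 called gene. Of the lower genes, Hspa1a and Klf4 were also detected less often in pericyte cells of the peri-infarct library than in those of sham, as given below.

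Of the 19 immediate early and heat shock genes 5 were lower and 0 higher (Fosb, Atf3, Nr4a1, Hspa1a and Hspa1b), 18 of 19 lay below the all-gene median, and the list median was -0.69. Other settings called 4 to 7 of them lower. Fosb, an AP-1 subunit, was at 171, 247 and 46.2 CPM in sham, infarct and peri-infarct, 3.71-fold lower in peri-infarct than in sham. Klf4 was 3.26-fold lower and Rapgef4 2.99-fold lower. In thinned pericyte cells Hspa1a was detected in 22.7% in sham and 6.13% in peri-infarct, and Klf4 in 4.02% and 1.23%. Both were thus lower outside the endothelial cells too, while Rgcc was not, at 26.7% and 30.0% of pericyte cells. Whether the lower levels are particular to endothelial cells was not tested, nor was the part of enzymatic dissociation in them. Maff, a small stress-induced transcription factor, was at 92.9, 23.1 and 27.7 CPM, and Per1, a clock gene that stress also induces, at 149, 46.1 and 53.1 CPM, low in both stroke libraries.

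Barrier genes lay within 2-fold of sham apart from Fzd4. Of 12 junction genes, 21 solute carriers, 3 efflux pumps and 10 vesicle genes compared 0 were called, with medians of -0.16, -0.21, -0.24 and -0.06. Of 19 Wnt genes 1 was lower, Fzd4 at 156 against 319 CPM (2.05-fold, and under 2-fold in 8 of the other settings). Abcb1a was 0.902-fold (0.827 to 0.982) and Slco1a4 0.843-fold (0.788 to 0.901) the sham level. Of 7 compared venous genes 0 were called, and of 4 leukocyte-adhesion genes also 0.

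The genes called higher in the peri-infarct were few. Lypd1, a Ly6-family membrane protein gene, had 17, 2 and 81 UMIs in 11, 1 and 34 cells and was 5.33-fold higher than in sham (3.13 to 9.60). Ankrd37, a hypoxia-induced gene, was at 92.9, 185 and 234 CPM (2.52-fold), Tbx1, a transcription factor, at 60.9, 85.4 and 129 CPM, and Efna1, an ephrin ligand, at 32.0, 64.6 and 68.1 CPM. The chemokine genes Cxcl10 and Ccl2 were at 115 against 0 and at 169 against 3.10 CPM, but 98 of 100 and 144 of 146 UMIs came from the same single cell. The contractile genes Acta2 and Tagln also passed 2-fold, where 148 of 218 and 134 of 202 UMIs came from 1 cell that the doublet caller marked. Interferon genes had 0 called of 22 and a median of 0.16, antigen presentation genes 0 of 12 and 0.26, and oxidative phosphorylation genes 0 of 19 and 0.28.

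Infarct and peri-infarct come from the same kind of operation, and their direct comparison shares each library with a comparison above, so its values are given side by side and not as further support. In marker-rich members 77 of 3286 genes were called higher in infarct (2.34%) and 84 lower (2.56%). In all members 554 of 3194 were higher (17.3%) and 767 lower (24%). Of 12 compared venous genes 7 were higher in infarct, and of 12 arterial genes 6 were lower (Bmx, Sema3g, Mgp, Gkn3, Alpl and Jag1). The called venous genes Ackr1, Icam1, Vcam1 and Il1r1 were below the CPM limit for comparison in peri-infarct, so the venous count is description only. Over the other settings 2 to 6 arterial genes were lower, with Sema3g losing its call in 8, Mgp in 4 and Bmx in 2, and 2 to 9 venous genes were higher. Mgp, a matrix inhibitor of calcification, was at 229 CPM in sham, 210 in the infarct and 447 in peri-infarct, so that its difference lay in the peri-infarct. Vcam1 was 5.03-fold (3.28 to 7.89), Icam1 4.53-fold (2.81 to 7.49) and Ackr1 10.4-fold (5.37 to 21.9) the peri-infarct level. Of the immediate early and heat shock genes 7 were higher (Fos, Fosb, Junb, Egr1, Atf3, Zfp36 and Nr4a1) and 3 lower (Hspa1a, Hspa1b and Hspb1), of which Hspb1 lost its call in 11 of the 15 other settings and Hspa1a in 2. Junctions and solute carriers had 0 called of 13 and of 22.

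Heart libraries from the same mouse line give the level of these genes in endothelium of another organ. Marker-rich heart cells by the same rule numbered 217 in sham, 151 in the infarct and 717 in peri-infarct after coronary ligation. They differ in dissociation and depth, so the values stand side by side without a test. The solute carrier list summed to 1683, 1946 and 1964 CPM in heart where brain had 14708, 10158 and 12840 CPM, and Slc2a1 was at 14.4, 17.2 and 8.92 CPM in heart. Caveolar and vesicle genes summed to 4519, 5398 and 5660 CPM in heart and 2471, 1936 and 2230 CPM in brain. Ackr1 had 0 CPM in all 3 heart libraries. Lrg1 was at 8.0 CPM after sham operation, 141 in the heart infarct and 44.6 around it, an order like that in brain. Icam1, Vcam1 and Vwf did not share this order and were highest in heart sham. In heart sham, infarct and peri-infarct Icam1 was at 350, 192 and 161 CPM and Vcam1 at 128, 45.5 and 24.3 CPM. Vwf was at 86.4, 54.1 and 26.2 CPM.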

How the data were processed

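Single cells sorted for tdTomato from 3 brain and 3 heart libraries were measured with 10x Genomics 3′ chemistry, 1 library per group. The authors deposited filtered count matrices, raw UMIs for 31053 genes in each cell barcode, made with Cell Ranger 3.0.2 on mm10 and followed by Seurat 3, per the submitters' processing notes. The gene annotation used in counting is not given in the sources used here, and reads of overlapping genes cannot be told apart. The brain libraries held 2808, 2368 and 2589 barcodes and 12311632, 54810989 and 11796570 UMIs in sham, infarct and peri-infarct, and 2646, 2071 and 2339 cells passed the filters of 500 genes and 10% mitochondrial UMIs.

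Counts were summed over members (and over marker-rich members, with 0.5% or more of UMIs from the 6 rule genes) and scaled to 1000000 (CPM). Genes with a mean of 50 CPM in a pair of libraries were compared, and a ratio of (CPM + 1) of at least 2-fold was called. At 50 CPM a gene has 48.4, 21.7 and 43.3 UMIs in the marker-rich sham, infarct and peri-infarct sums. Intervals are exact, Poisson for CPM, conditional binomial for ratios and Clopper-Pearson for shares of cells, at 95%. A gene with 0 UMIs in 1 library was set at 3 counts for a lower bound of the ratio. There were no replicates, so no p-value was computed. Shares of cells with a UMI were taken after thinning cells to 1000 UMIs, beside cells with a Kcnj8 or Abcc9 UMI, no Ptprc UMI and fewer than 3 rule genes (called pericyte cells; 1414, 481 and 1009 cells). Doublets were marked with Scrublet (scanpy 1.11.5) at 0.8% of cells per 1000 barcodes and were kept; 4, 1 and 4 marker-rich members were marked.

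The members, gene lists and the 0.5% limit were chosen with earlier results of these data known. Genes were named by rule, as the genes with the 10 highest and the 10 lowest ratios per comparison, the same among genes at least 2-fold above other cells of the library, 30 genes chosen for their role, and up to 6 members of each list. Some items that the rule names are not reported here. The lists covered junctions, solute carriers, efflux pumps, caveolae, Wnt regulators, endothelial transcription factors, leukocyte adhesion, cytokines and NF-kB, interferon, antigen presentation, angiogenic genes, basement membrane, mesenchymal transition, coagulation, arterial, capillary and venous genes, cell cycle, glycolysis and hypoxia, immediate early and heat shock genes, oxidative phosphorylation, and markers of other cell types. The alternatives were other gates, scalings, filters, thinning and pseudocounts. The counting and calling steps were tested on simulated data. Python 3.11.15, numpy 2.4.6, scipy 1.17.1, matplotlib 3.10.9 and, for TMM factors, R 4.3.3 with edgeR 4.0.16 were used.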

Additional observations from a re-analysis of the deposited data

How the results depend on the processing

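Each group is 1 library, so no replicate could be left out and the spread between animals is unknown. No paired analysis was possible because each group holds 1 library and the counts come from no test. At the depth of the marker-rich infarct cells a gene at 50 CPM has 21.7 UMIs, so ratios of lower genes were not compared. 3 alternatives were chosen after seeing the data, namely marker-rich cells kept with or without UMIs of the 3 exclusion genes, the cell with most UMIs of a gene left out, and the deepest cell of each library left out. Of the genes called and named for infarct against sham, 26 of 48 were called in every setting, for peri-infarct against sham 12 of 18 and for infarct against peri-infarct 22 of 44. Where a value moved the cause was not tested.

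Cell numbers depended on the gate. With the markers counted on cells thinned to 1000 UMIs there were 85 infarct and 322 peri-infarct members, with at least 5 of 6 markers 261 in sham, 75 in infarct and 251 around it, with no other marker list above the rule genes 73 in infarct, with rule genes at 0.5% of UMIs 76 in infarct, and with at most 5% mitochondrial UMIs 246 in sham and 228 in peri-infarct.

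For all members, infarct against sham, the 615 higher and 1023 lower genes became 78 and 164 (thinned gate), 216 and 429 (5 markers), 91 and 183 (other lists), 109 and 216 (0.5% of UMIs), 1111 and 670 (TMM), 288 and 518 (mean over cells), 392 and 637 (cells thinned) and 957 and 2086 (at 20 CPM). For infarct against peri-infarct, 554 and 767 became 63 and 86, 168 and 176, 78 and 69, and 77 and 84 under the 4 gates, 928 higher with TMM, 231 and 244 as a mean over cells, 347 and 393 thinned, and 850 and 1611 at 20 CPM. For peri-infarct against sham, 28 higher became 12 (thinned gate), 18 (other lists), 44 (5% mitochondrial), 61 (thinned) and 96 (20 CPM), and 41 lower became 23 (TMM), 147 (thinned), 135 (20 CPM) and 26 (pseudocount of 10).

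In marker-rich members, infarct against sham, 109 higher became 194 (TMM), 63 (mean over cells), 209 (thinned) and 230 (20 CPM), and 216 lower became 88 (TMM), 396 (thinned), 591 (20 CPM) and 141 (pseudocount of 10). For peri-infarct against sham, 23 higher became 12 (with or without exclusion UMIs), 38 (TMM), 62 (thinned) and 77 (20 CPM), and 42 lower became 25, 157 and 141 under the last 3 and 27 with a pseudocount of 10. For infarct against peri-infarct, 77 higher became 200 (thinned) and 172 (20 CPM), and 84 lower became 55 (TMM), 272 (thinned) and 315 (20 CPM).

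Some single genes reversed (log2 ratios). Against peri-infarct, infarct Nr2f2 went to -0.29 with or without exclusion UMIs and -0.0943 as a mean over cells, Lgals1 to -0.23 (thinned gate), -0.12 (other lists), -0.46 (without the deepest cell) and -0.39 (without its top cell), Col1a1 to -1.21, -1.33, -1.33 and -0.36 in the same order, and Cxcl10 to 1.68 without its top cell. Against sham, infarct Reck went to 0.69 (thinned) and Col1a1 to -1.59 (thinned gate) and -0.61 (without the deepest cell), and peri-infarct Acta2 to -0.25 (other lists) and -0.90 (5% mitochondrial) and Tagln to -0.16 (5% mitochondrial).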
